A study of Mus musculus with 6 samples.

Results

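Ces1d and 9 genes that are used as markers of fat cells (Adipoq, Plin1, Fabp4, Cidec, Lep, Retn, Cfd, Car3 and Scd1) are described here in mouse muscle, 10 genes of the 41709 in the expression table. They were taken by gene symbol. Ces1d was chosen on these same measurements. It had rank 5 by log2 fold change among 260 genes that lay above in every muscle of the LrpprcP27A group, were higher in all 3 same-numbered pairs and had an unadjusted limma p under 0.05. The gene just above it in that order was Odf3l2 (log2 fold change of 1.93) and the gene just below it was Cyp4f39 (1.62). The other 9 genes were set beside it with results of the study already known, so the difference of the 10 genes between the groups is given as a description and carries no test.

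The muscles were tibialis anterior (TA) muscles of male C57BL/6J mice. Each had received, by electroporation, a plasmid that drives Flag-tagged mouse Lrpprc from a CMV promoter. In 3 muscles the plasmid held the wild-type sequence (LrpprcWT, the control), and in the contralateral 3 it held the P27A variant (LrpprcP27A), an exchange of proline for alanine that resists dihydroxylation. Lrpprc is an RNA-binding protein best known for keeping mitochondrial mRNAs stable. All 6 muscles thus carried a plasmid and were electroporated, and were collected a fortnight later. Only some fibres take up a plasmid, whereas RNA came from the whole muscle. The age of the mice used for RNA-seq was not given, although the study lists young and old mice. Muscles are numbered 1 to 3 in each group, and muscles with the same number share a library number.

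Fat cells store triglyceride in a droplet coated by perilipin 1 (Plin1) and enlarged by Cidec, and they secrete adiponectin (Adipoq), leptin (Lep), resistin (Retn) and the complement protease adipsin (Cfd). These 6 genes are the defining markers. Fabp4 carries fatty acids in fat cells and is also made by capillary endothelium and macrophages. Scd1 puts the first double bond into saturated fatty acids in many tissues. Carbonic anhydrase 3 (Car3) is abundant in fat, liver and muscle fibres. Ces1d is a carboxylesterase that hydrolyses triglyceride in fat and liver. A limb muscle holds some fat cells between its fibres. In RNA of a whole muscle, fewer fat cells and less RNA per fat cell cannot be told apart.

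The expression values were length-scaled transcript abundances (TPM), which are set per transcript length and sum to the same total in each library, so levels can be compared between genes, but the number of reads behind a value is unknown. Muscle RNA was present in all 6 libraries, with skeletal actin (Acta1) between 35110 and 44520 TPM. Lrpprc itself, plasmid and endogenous copies together, lay between 35.1 and 75.2 TPM in LrpprcWT and between 26.0 and 29.7 TPM in LrpprcP27A (limma adjusted p = 0.0652, and 0.00243 with the muscles paired by number). Genes of the mitochondrial genome held 36.0 to 46.1% of all TPM. LrpprcWT muscle 2 stood apart from its group: on the first principal component, with 78.1% of the variance, it scored -0.801, between the other LrpprcWT muscles (-42.4 and -41.6) and the LrpprcP27A muscles (18.0 to 38.9). Fold changes of the 10 genes that rest on it are given with and without it. Over the 11611 genes with a mean of at least 1 TPM, the median log2 fold change was -0.32, so most genes lay lower in LrpprcP27A. Fold changes here are LrpprcP27A minus LrpprcWT on the scale of log2(TPM + 1), which understates the change of a low gene.

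Ces1d lies in a row of related carboxylesterase genes on chromosome 8, so the stretch of coding sequence around the catalytic serine is shown for it and for 3 relatives, from the GENCODE transcripts on GRCm39, read on the minus strand. Ces1d lies at chr8:93892693-93924466 (ENSMUSG00000056973) and the stretch at chr8:93914371-93914428. The capitals in Ces1d mark the codon of serine 221, and those in the relatives mark bases that differ from Ces1d.
Ces1d: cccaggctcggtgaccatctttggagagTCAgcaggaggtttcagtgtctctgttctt
Ces1e: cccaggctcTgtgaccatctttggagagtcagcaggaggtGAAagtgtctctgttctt
Ces1f: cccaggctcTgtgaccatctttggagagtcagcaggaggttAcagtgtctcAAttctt
Ces1g: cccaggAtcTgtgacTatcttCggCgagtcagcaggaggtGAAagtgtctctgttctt
Ces1e and Ces1f each differed from Ces1d at 4 of these 58 bases and Ces1g at 8. Over the whole coding sequence of 1695 bases, the closest relative was Ces1g, at 81.5% identity, followed by Ces1e at 80.3%. None of the 4956 windows of 100 bases in the Ces1d transcripts, the length of a read, occurred in another gene. Among the other 9 genes, only Scd1 had such windows, 126 of 7397, shared with Scd3, which was listed at 0 to 0.0646 TPM.

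Ces1d stood at 1.69, 8.06 and 0.737 TPM in LrpprcWT muscles 1, 2 and 3, and at 9.15, 12.4 and 9.49 TPM in LrpprcP27A muscles 1, 2 and 3. Every LrpprcP27A muscle was above every LrpprcWT muscle, but LrpprcWT muscle 2 came close to the lowest of them. The means were 3.50 ± 3.98 and 10.4 ± 1.80 TPM (SD, n = 3), a ratio of 2.96, and the log2 fold change of 1.69 compares with a pooled SD within groups of 0.89. The same-numbered pairs had ratios of 5.40, 1.54 and 12.9. The log2 fold change was 2.38 without LrpprcWT muscle 2 and 1.19 without LrpprcWT muscle 3, the muscle with the lowest value.

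**Figure D1:**
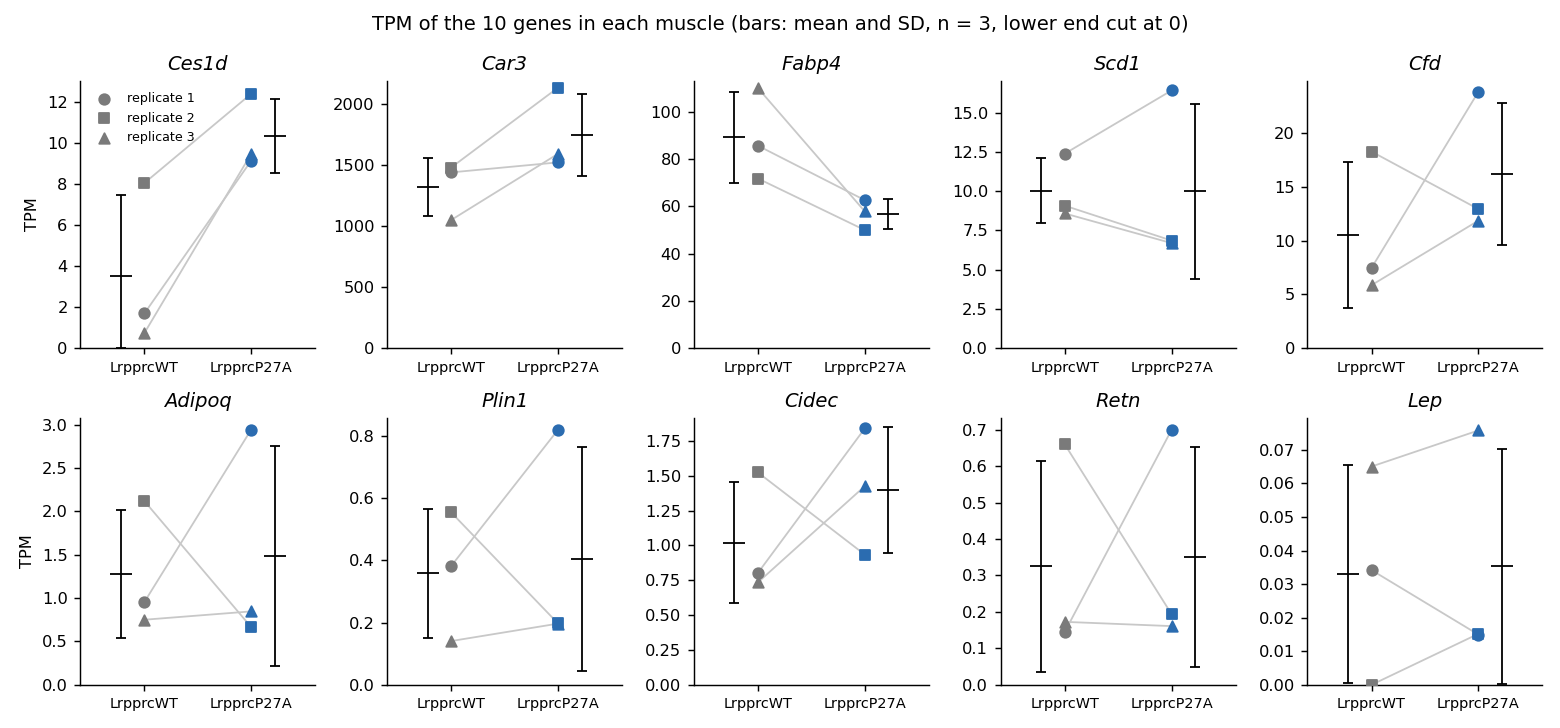
TPM of each of the 10 genes in the 3 LrpprcWT and the 3 LrpprcP27A muscles, with 1 point per muscle and the mean and SD of each group as bars (n = 3, lower ends cut at 0). Each panel has its own linear axis, and lines join muscles with the same number. Ces1d and Car3 are above in LrpprcP27A and Fabp4 is below, while the groups overlap for the other 7 genes.

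The defining fat cell markers other than Cfd were low, with no value above 3 TPM, and their groups overlapped. Adipoq (chr16:22964106-22976810) stood at 0.955, 2.12 and 0.751 TPM in LrpprcWT muscles 1 to 3 and at 2.94, 0.665 and 0.847 TPM in LrpprcP27A muscles 1 to 3. The groups overlapped, with the highest value in LrpprcP27A muscle 1, the next in LrpprcWT muscle 2 and the lowest in LrpprcP27A muscle 2, where Ces1d was highest. The means were 1.28 ± 0.738 and 1.49 ± 1.27 TPM (SD, n = 3), a log2 fold change of 0.06, or 0.31 without LrpprcWT muscle 2 and -0.33 without LrpprcP27A muscle 1. The ratio in the pairs was 3.08, 0.314 and 1.13, so the pairs did not share a direction.

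Cfd, the most abundant defining marker (chr10:79726668-79728496), stood at 7.46, 18.3 and 5.86 TPM in LrpprcWT muscles and at 23.9, 12.9 and 11.9 TPM in LrpprcP27A muscles. The same muscles were high, LrpprcP27A muscle 1 and LrpprcWT muscle 2, and the groups overlapped through LrpprcWT muscle 2. Its log2 fold change of 0.66 was close to its pooled SD of 0.67. Without LrpprcWT muscle 2 the groups were apart and the log2 fold change was 1.11, and without LrpprcP27A muscle 1 it was 0.37. Cidec (chr6:113400691-113412721) was at 0.803, 1.52 and 0.735 TPM against 1.84, 0.934 and 1.43 TPM, again highest in LrpprcP27A muscle 1 and next in LrpprcWT muscle 2, with a log2 fold change of 0.25. Without LrpprcWT muscle 2 its groups were apart too, with a log2 fold change of 0.42, and without LrpprcP27A muscle 1 it was 0.12. How many of all tested genes were apart without LrpprcWT muscle 2 was not counted.

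Plin1 (chr7:79369966-79382718) had 0.382, 0.555 and 0.141 TPM in LrpprcWT and 0.821, 0.197 and 0.197 TPM in LrpprcP27A. Retn (chr8:3705324-3710689) had 0.145, 0.660 and 0.173 TPM in LrpprcWT and 0.699, 0.194 and 0.161 TPM in LrpprcP27A. Both were highest in LrpprcP27A muscle 1 and next in LrpprcWT muscle 2, and their log2 fold changes were 0.03 and 0.03. These became 0.13 and 0.20 without LrpprcWT muscle 2, and -0.17 and -0.15 without LrpprcP27A muscle 1. Lep (chr6:29060216-29073877), the leptin gene, was at 0.0342, 0 and 0.0651 TPM in LrpprcWT and at 0.0150, 0.0152 and 0.0758 TPM in LrpprcP27A. Leptin was therefore near 0 in every muscle, including those highest in the other markers.

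LrpprcWT muscle 2 and LrpprcP27A muscle 1 were the 2 highest of the 6 libraries in 5 of the 10 genes, Adipoq, Plin1, Cidec, Retn and Cfd. These 2 libraries were picked from the values of these same genes, so the share among the 10 carries no test. Of the genes with a mean of at least 1 TPM, 53 of 11611, or 0.456%, had that order, as did 3 of the 7 such members, Adipoq, Cidec and Cfd. Plin1 and Retn lay below that level, where 236 of 9839 genes above 0 in any library, or 2.40%, had it. It also held in 4 of the 20 other adipocyte markers listed, of which Cdo1 reached 1 TPM and Acvr1c, Mrap and Adrb3 did not. The summed TPM of the 6 defining markers was 9.78, 23.1 and 7.72 in LrpprcWT muscles 1 to 3 and 30.2, 14.9 and 14.6 in LrpprcP27A muscles 1 to 3, most of it from Cfd. Without Cfd the sums were 2.32, 4.86 and 1.86 against 6.32, 2.01 and 2.71. The level of fat cell transcripts thus varied within both groups, by muscle, and the groups overlapped.

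The ratios of Plin1, Retn, Cfd, Cidec and Scd1 to Adipoq had narrower ranges than the TPM of Adipoq, and those of Car3, Fabp4 and Ces1d wider ones. Division by Adipoq narrowed the range of Plin1, Retn and Cfd, which was 5.828-fold, 4.817-fold and 4.071-fold in TPM. It widened the range of Cidec and Scd1 (2.503-fold and 2.454-fold in TPM) and of Ces1d (16.85-fold). It also widened that of Car3 and Fabp4, whose TPM spanned only 2.033-fold and 2.203-fold ranges. Adipoq itself spanned a 4.43-fold range over the 6 muscles. The Plin1 to Adipoq ratio lay between 0.188 and 0.400, a 2.13-fold range, and the Retn to Adipoq ratio between 0.152 and 0.311, a 2.05-fold range. The Cfd to Adipoq ratio was between 7.80 and 8.63 in the LrpprcWT muscles and 8.10 in LrpprcP27A muscle 1, but 19.5 and 14.0 in LrpprcP27A muscles 2 and 3. The Cidec to Adipoq ratio likewise was 0.719 to 0.979 in LrpprcWT and 0.625 in LrpprcP27A muscle 1, but 1.41 and 1.68 in LrpprcP27A muscles 2 and 3. These were ranges of 2.5-fold for Cfd and 2.69-fold for Cidec, and the range for Scd1 was 3.03-fold. For Ces1d the ratio to Adipoq was 1.77, 3.80 and 0.982 in LrpprcWT muscles and 3.11, 18.7 and 11.2 in LrpprcP27A muscles, a 19.0-fold range. In LrpprcP27A muscle 1, where Adipoq was highest, the Ces1d ratio lay within the LrpprcWT range, as for Cfd, while the Cidec and Car3 ratios lay below theirs. In LrpprcP27A muscles 2 and 3, where Adipoq was low, the ratios of Ces1d, Cfd, Cidec and Car3 were all above the LrpprcWT range. For Car3 the ratio was highest, 3210, in LrpprcP27A muscle 2 and lowest, 517, in LrpprcP27A muscle 1, a 6.21-fold range. For Fabp4 the range was 6.89-fold.

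**Figure D2:**
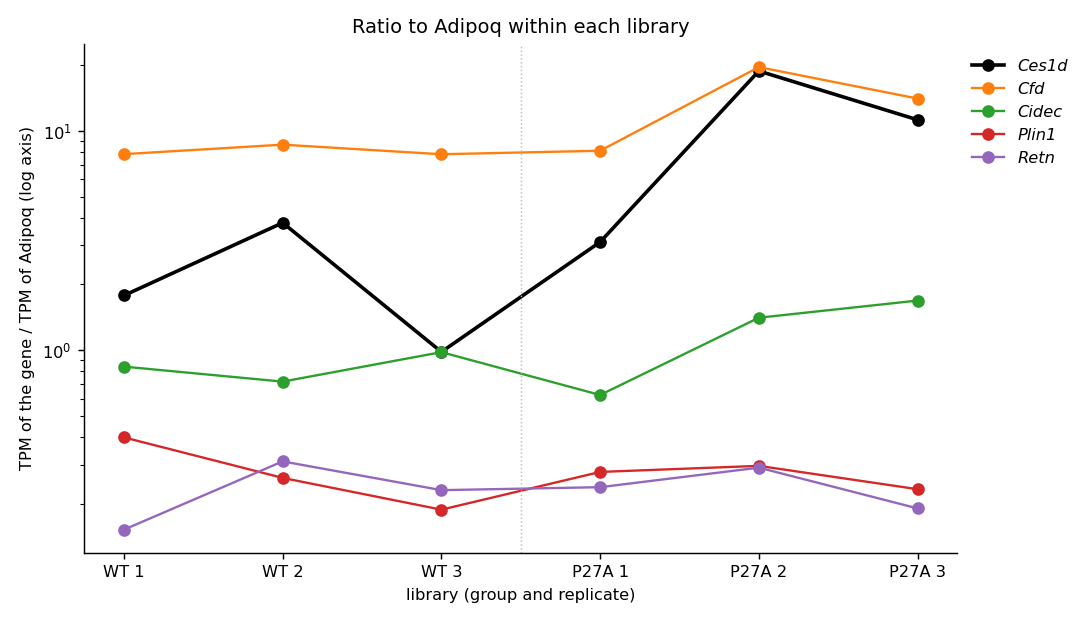
Ratio of the TPM of Ces1d, Cfd, Cidec, Plin1 and Retn to the TPM of Adipoq in each of the 6 muscles, on a log axis, with lines that join the muscles for the eye only. Plin1, Retn, Cfd and Cidec stay within 2.13-fold, 2.05-fold, 2.5-fold and 2.69-fold ranges, while Ces1d runs from 0.982 to 18.7. Like Cfd and Cidec, Ces1d is highest in LrpprcP27A muscles 2 and 3.

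The remaining 3 genes, which other cells of muscle also express, each had a pattern of its own. Car3 (chr3:14928489-14937595) was at 1439, 1479 and 1049 TPM in LrpprcWT and at 1521, 2133 and 1591 TPM in LrpprcP27A. The LrpprcP27A muscles were all above, though muscle 1 by little, and the means of 1322 ± 237 and 1748 ± 335 TPM (SD, n = 3) had a ratio of 1.32. Its level exceeded that of 99.6% of the tested genes. The 6 muscles fell in the same order for Car3 as for Ces1d, with LrpprcP27A muscle 2 highest and LrpprcWT muscle 3 lowest. The scaling factors of the libraries had the reverse order. Its log2 fold change was 0.40, and 0.83 with median-of-ratios scaling of the libraries.

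Fabp4 (chr3:10268785-10273737) went the other way, with 85.6, 71.8 and 110.0 TPM in LrpprcWT and 62.6, 49.9 and 57.8 TPM in LrpprcP27A. All LrpprcP27A muscles were below, and the order of the 6 muscles was the reverse of that of Ces1d. The median-of-ratios scaling factors of the libraries fell in the order of Fabp4, from 1.28 in LrpprcWT muscle 3 to 0.831 in LrpprcP27A muscle 2. Genes that follow the shift of most genes can thus share this order, and how many genes had it was not counted. The means of 89.1 ± 19.3 and 56.8 ± 6.40 TPM (SD, n = 3) had a ratio of LrpprcWT to LrpprcP27A of 1.57, and the log2 fold change of -0.63 became -0.21 with median-of-ratios scaling. Scd1 (chr19:44382894-44399154) stood at 12.4, 9.08 and 8.59 TPM in LrpprcWT and at 16.4, 6.86 and 6.70 TPM in LrpprcP27A. It was highest in LrpprcP27A muscle 1 and lowest in the other LrpprcP27A muscles, so the groups overlapped. Its log2 fold change of -0.10 changed sign with each of the 3 other scalings of the libraries, to 0.07, 0.28 and 0.27.

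Of the 10 genes, Ces1d and Car3 were above in all LrpprcP27A muscles and Fabp4 below. Among the 11611 tested genes the groups did not overlap in 3.51% with LrpprcP27A above and in 47.6% with LrpprcP27A below. These shares are given as the background, since the choice of the genes used the same comparison. The median log2 fold change of the 9 genes other than Ces1d was 0.03, against -0.32 over all tested genes and 1.69 for Ces1d. Their levels, by the means over LrpprcWT, ran from Car3 and Fabp4 down to Cfd and Scd1, then Ces1d, Adipoq, Cidec, Plin1, Retn and Lep. Values of Cfd overlapped with those of Scd1 and of Ces1d, as did those of Adipoq with Cidec and those of Plin1 with Retn. In LrpprcP27A, Ces1d stood between Cfd and Scd1, and again its values overlapped with both.

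To see which genes shared the profile of Ces1d, each gene's log2(TPM + 1) was centred on its mean over the 6 libraries and the root mean square difference from Ces1d was taken over 11610 genes. The nearest was Dusp26, a dual-specificity phosphatase, at a difference of 0.36 log2 units. It had 14.5, 31.9 and 12.5 TPM in LrpprcWT and 47.9, 51.7 and 46.5 TPM in LrpprcP27A, with LrpprcWT muscle 2 the highest of its group, as in Ces1d. Next came Slc15a5 (0.42), of a family of peptide transporters, the small GTPase Rasd2 (0.43), Amd1 (0.45), the decarboxylase that feeds polyamine synthesis, and the 7SL RNA gene Rn7s2 (0.47). Amd1 and Rn7s2 have near-identical copies elsewhere in the genome, so their values are uncertain. In Slc15a5, LrpprcWT muscle 2 (3.37 TPM) lay above LrpprcP27A muscles 1 and 3 (3.27 and 2.96 TPM). None of these 5 is an adipocyte marker of the lists used here. Since Ces1d was chosen for its rise in LrpprcP27A, genes near to it were bound to be raised too, and their direction carries no test.

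Among the fat cell genes, Cfd was the most like Ces1d, at a difference of 0.69 and place 26, and Car3 was at 0.88 and place 149. Adipoq was at 1.05 and place 652, about as far as a flat line (1.11), and Fabp4 was at 1.47 and place 9564. From the side of Adipoq, the nearest gene was Cdo1, cysteine dioxygenase, which is abundant in fat, at 0.17. It had 1.01, 1.81 and 0.863 TPM in LrpprcWT and 2.08, 0.806 and 0.928 TPM in LrpprcP27A. Then followed Sfrp5 (0.21), a Wnt antagonist secreted by fat cells, Nrgn (0.22), Ntf3 (0.25) and Ppbp (0.25). Retn was at 0.24, Plin1 at 0.25 and Cidec at 0.29 from Adipoq, whereas Ces1d was at place 11464 of 11610. Low genes vary little on this scale, so Retn and Plin1 lie near any gene with small differences, and a flat line was at 0.47 from Adipoq. Ces1d, chosen for a large change, was at 1.11 from a flat line and so lies far from any gene that varies little. Its place from Adipoq therefore cannot separate a different profile from a larger change.

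**Figure D3:**
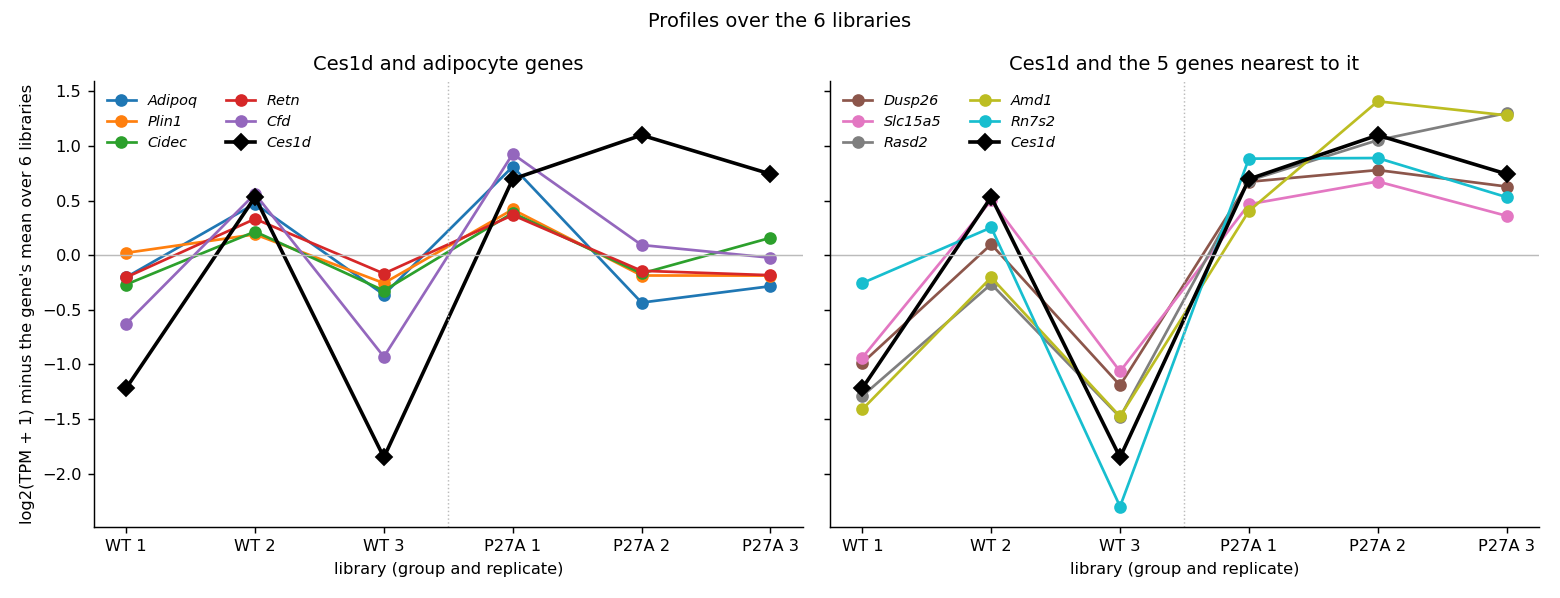
Log2(TPM + 1) minus each gene's mean over the 6 muscles, for Ces1d (black) with Adipoq, Plin1, Cidec, Retn and Cfd on the left and with its 5 nearest genes on the right. Lines join the muscles for the eye only. Ces1d, chosen for its rise, and its nearest genes are high in all LrpprcP27A muscles, with LrpprcWT muscle 2 the highest of its group. Adipoq and the markers beside it are highest in LrpprcP27A muscle 1 and LrpprcWT muscle 2.

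Genes outside the 10 could be tested. With limma's moderated linear model and Benjamini-Hochberg adjustment over 11611 genes (adjusted p under 0.05), 1.34% of the tested genes were higher and 23.3% lower in LrpprcP27A. Of 62 further lipid and adipocyte genes listed, 46 were tested. Of these, 2 were higher (4.35%) and 7 lower (15.2%), and 37 did not pass. The share lower was thus below that of all tested genes and the share higher above it, on few genes. With the muscles paired by number, 4 were higher (8.70%) and 17 lower (37.0%), against 2.69% and 48.4% of all tested genes in that fit. The median log2 fold change of the 46 was -0.23, against -0.32 over all tested genes, and both moved above 0, to 0.11 and 0.04, with median-of-ratios scaling. Numbers of calls depended on the scaling, with 6 higher and 1 lower after median-of-ratios scaling, where 6.83% of all tested genes were higher and 5.81% lower. The paired fit with this scaling gave 11 higher and 4 lower, against 17.2% and 14.1% of all tested genes.

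Among 20 other adipocyte markers, 8 reached a mean of 1 TPM, 2 of them were lower (25.0%, near the 23.3% of all tested genes, and 3 in the paired fit) and none was higher. The lower ones were Thrsp, a nuclear protein that promotes lipid synthesis, and Cidea, a lipid droplet protein of brown fat. Thrsp had 26.7, 28.3 and 36.4 TPM in LrpprcWT and 11.4, 14.5 and 14.0 TPM in LrpprcP27A. Its log2 fold change was -1.13 (SE 0.15, limma adjusted p = 0.0111), and it passed under each scaling. Cidea fell by 0.92 on the log2 scale (SE 0.18, limma adjusted p = 0.0188), but its adjusted p was 0.0542 with median-of-ratios scaling. Markers more restricted to fat cells did not pass or were too low to test. Adig, for example, stood at 2.48 ± 1.67 and 2.32 ± 0.407 TPM, Acvr1c and Adrb3 were below 0.11 TPM in each muscle, and Ucp1, the defining gene of brown fat, was between 0 and 0.0667 TPM. Of 6 brown fat genes, 3 were tested and 2 were lower (66.7%, against 23.3% of all tested genes, on few genes). These were Cidea, already counted above, and Dio2, the deiodinase that activates thyroid hormone (log2 fold change of -0.94, SE 0.22, limma adjusted p = 0.0256). With median-of-ratios scaling 1 of the 3 was lower (33.3%, against 5.81%).

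The transcription factors that drive fat cell formation showed no common direction without further scaling. All 11 listed were tested, 1 was higher (9.09%, against 1.34% of all tested genes) and none lower (against 23.3%). In the paired fit 2 were higher and 4 lower (18.2% and 36.4%, against 2.69% and 48.4% of all tested genes). The higher one in the unpaired fit was Rxra, the partner of PPAR receptors, with 40.6, 44.2 and 38.7 TPM in LrpprcWT and 52.4, 53.7 and 51.3 TPM in LrpprcP27A (log2 fold change of 0.34, SE 0.10, limma adjusted p = 0.0434). Pparg, the master regulator of fat cells, was at 2.85 ± 1.33 and 2.23 ± 1.51 TPM and did not pass (limma adjusted p = 0.486). With median-of-ratios scaling 3 of the 11 were higher (27.3%, against 6.83% of all tested genes) and none lower. The paired fit with this scaling gave 4 higher (36.4%, against 17.2%) and none lower.

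Of 18 enzymes of fatty acid and triglyceride synthesis, 15 were tested. Of these, 1 was higher (6.67%, against 1.34% of all tested genes) and 2 were lower (13.3%, against 23.3%). In the paired fit 2 were higher (13.3%, against 2.69%) and 6 lower (40%, against 48.4%). With median-of-ratios scaling 2 were higher and none lower. The paired fit with this scaling gave 3 higher (20%, against 17.2%) and 2 lower (13.3%, against 14.1%). Me1, the malic enzyme that supplies NADPH to fatty acid synthesis, stood at 46.3, 75.1 and 50.2 TPM in LrpprcWT and at 84.0, 120.0 and 123 TPM in LrpprcP27A. It rose by a log2 fold change of 0.93 (SE 0.21, limma adjusted p = 0.0240), and LrpprcWT muscle 2 was the nearest of its group to LrpprcP27A. The lower ones in the unpaired fit were Fads1, a desaturase of polyunsaturated fatty acids (log2 fold change of -0.68), and Elovl5, which elongates them (-0.66), with limma adjusted p of 0.0255 and 0.0372. Neither passed with any other scaling in the unpaired fit. Fasn, fatty acid synthase, was at 3.52 ± 0.853 and 2.96 ± 0.961 TPM and did not pass.

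Of 16 lipid droplet and lipolysis genes, 15 were tested. None was higher and 4 were lower (5 in the paired fit), a share of 26.7%, near the 23.3% of all tested genes. With median-of-ratios scaling 1 was higher and none lower. Besides Cidea these were Hilpda, an inhibitor of lipolysis (log2 fold change of -0.71), Mgll, monoglyceride lipase (-0.70), and Fitm1, which partitions fat into droplets in muscle (-0.44), with limma adjusted p of 0.0299, 0.0468 and 0.0410. These 3 had adjusted p of 0.124, 0.207 and 0.937 with median-of-ratios scaling. The main lipase Pnpla2 stood at 134 ± 10.2 and 122 ± 5.27 TPM and did not pass.

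The relatives of Ces1d, Fabp4 and Car3 were mostly low or listed at 0. Of 18 further carboxylesterases, 10 were listed at 0 in all 6 libraries, among them Ces1b, Ces1c, Ces1g and Ces1h. Ces1e, whose sequence is shown above, stayed between 0.174 and 0.536 TPM, and Ces1f between 0.0155 and 0.181 TPM. Ces2c was the only one tested. It had 1.75, 2.48 and 4.32 TPM in LrpprcWT and 0.109, 0.200 and 0.111 TPM in LrpprcP27A, a log2 fold change of -1.70 (SE 0.23, limma adjusted p = 0.0111), the reverse direction to Ces1d. Ces1d was the most abundant carboxylesterase in each LrpprcP27A muscle, whereas in LrpprcWT muscles 1 and 3 Ces2c was.

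Of 8 other fatty acid binding proteins, only Fabp3 and Fabp5 were tested. Fabp5, of skin, macrophages and endothelium, had 13.9, 7.12 and 15.4 TPM in LrpprcWT and 6.36, 3.32 and 3.61 TPM in LrpprcP27A (log2 fold change of -1.25, SE 0.29, limma adjusted p = 0.0257, and 0.0511 with median-of-ratios scaling). Fabp3, the form of muscle and heart, ranged from 464 to 1558 TPM and did not pass (adjusted p = 0.379), although it was lower in the paired fit (adjusted p = 0.00661). Of 15 other carbonic anhydrases, 6 were tested and 1 was higher (16.7%, against 1.34% of all tested genes). It was Car11, at 2.37 ± 0.829 and 4.95 ± 1.25 TPM (log2 fold change of 0.83, SE 0.22, limma adjusted p = 0.0324). With median-of-ratios scaling 2 were higher (33.3%, against 6.83%), and in the paired fit with this scaling 4 were (66.7%, against 17.2%). None was lower in these fits.

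Receptors for the secreted products were measured as well. Adipor1 and Adipor2, the adiponectin receptors, stood at 84.4 ± 1.58 and 99.7 ± 0.455 TPM and at 43.2 ± 2.24 and 48.2 ± 4.36 TPM, and did not pass without further scaling. Cdh13, which binds adiponectin on endothelium, was lower (log2 fold change of -0.60, SE 0.18, limma adjusted p = 0.0424), as was C3ar1, the receptor of complement C3a on macrophages (-0.95, SE 0.21, limma adjusted p = 0.0236). Cdh13 did not pass with median-of-ratios scaling (adjusted p = 0.221). Adipor1 and Adipor2 were higher with that scaling and C3ar1 lower, in the unpaired and in the paired fit. That is 50% of the 4 tested receptors higher, against 6.83% and 17.2% of all tested genes in these fits. The share lower was 25%, against 5.81% and 14.1%.

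**Figure D4:**
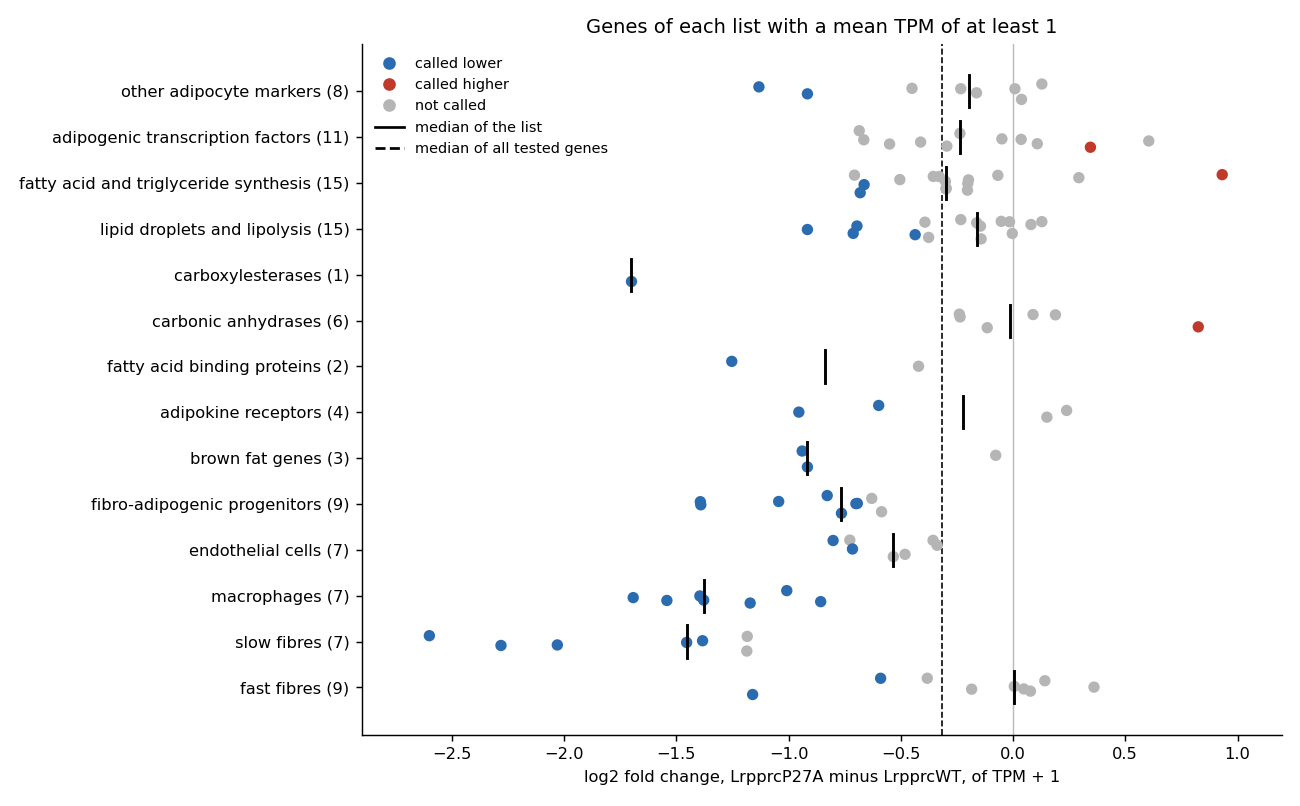
Log2 fold change (LrpprcP27A minus LrpprcWT, of TPM + 1) of the tested genes of each list outside the 10, 1 point per gene, with the number tested in brackets. Colour marks genes past an adjusted p of 0.05, black bars the median of a list and the dashed line the median of all tested genes, -0.32.

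Markers of other cells of muscle were measured too, and their counts are read against the 23.3% of all tested genes that were lower, or 48.4% in the paired fit. All 7 macrophage markers were lower in LrpprcP27A, with a summed level of 307 to 616 TPM in LrpprcWT and 103 to 211 TPM in LrpprcP27A, and they included Lyz2 (log2 fold change of -1.54) and Cd68 (-1.69), with limma adjusted p of 0.0144 and 0.0160. The sums fell in the same order of muscles as Fabp4, an order that the scaling factors of the libraries also had. Endothelial markers had sums of 188 to 338 TPM and 142 to 195 TPM, with 2 of 7 lower (28.6%, near the share of all tested genes), Cdh5 and Emcn, and all 7 lower in the paired fit. Of the 9 tested markers of fibro-adipogenic progenitors, the cells from which fat cells of muscle arise, 7 were lower (9 in the paired fit), and their sums were 313 to 516 TPM and 173 to 253 TPM. The strongest were Dpt (log2 fold change of -1.39) and Lum (-1.39), both matrix proteins, with limma adjusted p of 0.0187 for each.

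Slow-fibre markers had sums of 116 to 207 TPM in LrpprcWT and 36.2 to 47.4 TPM in LrpprcP27A, with 5 of 7 lower (7 in the paired fit), Tnni1 by the most (log2 fold change of -2.60, limma adjusted p = 0.0116). Fast-fibre markers, the bulk of this muscle, summed to 130200 to 140700 TPM and 119800 to 133400 TPM. Of these, 2 of 9 were lower, Myh2 and Mylpf (22.2%, near the 23.3% of all tested genes). In the paired fit 3 were lower (33.3%, against 48.4%) and 1 higher (11.1%, against 2.69%). In none of the 4 lists of other cells or slow fibres was a gene higher. With median-of-ratios scaling 3 of the 7 macrophage, 3 of the 9 progenitor, 4 of the 7 slow-fibre and none of the endothelial markers were lower. The share over all tested genes in that fit was 5.81%. In the paired fit with this scaling these were 7 macrophage, 5 progenitor, 5 slow-fibre and 3 of the 7 endothelial markers, against 14.1% of all tested genes. Of the 9 fast-fibre markers, none was lower or higher with median-of-ratios scaling in the unpaired fit. With pairing added, 4 were higher (44.4%, against 17.2% of all tested genes) and none lower. The part of these cells and fibres in the values of Fabp4, Car3 and Ces1d was not tested.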

How the data were processed

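Per the labels and the study's methods, total RNA of 6 TA muscles was made into TruSeq libraries and sequenced as paired 100-base reads. The authors used CLC Genomics Workbench to trim the reads and to align them to GRCm39 (mm39) and deposited 1 table of TPM values, with no further scaling between libraries. The gene annotation and strand setting are not given in the sources used here. Since TPM values hold no read numbers, neither the depth of a library nor an error from counting is known, and values under 1 TPM may rest on few reads.

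Log2(TPM + 1) was compared with limma 3.58.1 in R 4.3.3 (trend, Benjamini-Hochberg) over the 11611 of 41709 genes with a mean of at least 1 TPM, between 3 LrpprcWT and 3 LrpprcP27A libraries. The script was tested on simulated data. Of the 10 genes, 7 passed this filter. Their fold changes are differences of mean log2 values and carry no p.

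The 10 genes, the 14 other lists and the tests were chosen with earlier results of these data known. The genes named are the 10, from each other list up to 4 genes past the threshold by size of change (where none passed, up to 2 by mean TPM), the 5 nearest in profile to Ces1d and to Adipoq, and the neighbours of Ces1d in rank. Of the list genes so chosen, Cd34, Cd55, C1qa, C1qb, Tnnc1, Tnnt1 and Atp2a2 were counted but not described singly. Genes named beside these that did not pass, Pparg, Fasn, Pnpla2, Adig, Fabp3 and the like, were chosen after their values were seen.

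The study states that the muscles were contralateral, and both groups carry the same library numbers. Deviations of same-numbered libraries from their group means correlated across genes at 0.363, 0.528 and 0.356, so the numbers were taken as pairs and the fit with them as a block is given beside the counts and calls that it changed. Nothing beyond this says which mouse a library came from. Positions, coding sequences and shared windows are from GENCODE on GRCm39, matched by symbol. Alternatives covered the pseudocount (0.1), the filter on low values (none, or a mean of 5 TPM), the trend, the study's Kruskal-Wallis test, pairing, rescaling over nuclear protein-coding genes, median-of-ratios scaling, quantile normalization and leaving out each library. Leaving out both libraries highest in adipocyte markers was added after the data were seen.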

Additional observations from a re-analysis of the deposited data

How the results depend on the processing

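Ces1d stayed higher in LrpprcP27A under each alternative run on its fold change, with a log2 fold change from 1.19 to 2.38 when 1 library was left out, 1.83 to 2.00 with the other scalings, 2.17 with a pseudocount of 0.1 and 2.46 without both libraries highest in adipocyte markers. The median of the other 9 genes lay between -0.15 and 0.20 when 1 library was left out and between 0.08 and 0.27 with the other scalings, each within its spread between libraries.

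Counts among the 46 tested lipid and adipocyte genes (2 higher, 7 lower) were less stable. The replicate block gave 4 higher and 17 lower, quantile normalization gave 4 and 1, and median-of-ratios scaling gave 6 and 1, or 11 and 4 once combined with the block. Rescaling over nuclear protein-coding genes gave 2 lower, a mean of at least 5 TPM gave 3 lower, limma without the trend gave 1 higher, and 11 were lower without both libraries highest in adipocyte markers. With no filter on low values limma gave 0 higher and 0 lower (4 and 13 at an unadjusted p under 0.05), and by Kruskal-Wallis there were likewise 0 higher and 0 lower (3 and 10 at that unadjusted level), since 3 against 3 libraries cannot pass an adjusted threshold there. Leaving out 1 library gave 0 to 3 higher and 0 to 12 lower. Without LrpprcWT muscle 3 there were 0 and 0 in limma (3 and 10 unadjusted), without LrpprcWT muscle 1 0 and 2, without LrpprcWT muscle 2 3 and 12, without LrpprcP27A muscle 1 1 and 5, and without LrpprcP27A muscle 2 or 3 0 and 2. The cause of these changes was not tested.

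Over all tested genes, 156 were higher and 2705 lower. The replicate block gave 312 and 5619, rescaling 227 and 638, quantile normalization 493 and 520, and median-of-ratios scaling 793 and 675. A mean of at least 5 TPM gave 116 and 1560, no filter 9 and 42, and leaving out 1 library 3 to 304 and 15 to 6913. Of the 31 list genes named as past the threshold, 16 lost the call with quantile normalization, 15 with median-of-ratios scaling, 7 when the block was added to the latter, 22 without LrpprcWT muscle 1 and 30 without LrpprcWT muscle 3, and none with the replicate block alone or without LrpprcWT muscle 2. Also lost were 31 by Kruskal-Wallis, 30 with no filter on low values, 17 and 19 without LrpprcP27A muscles 2 and 3, 15 with rescaling, 5 without LrpprcP27A muscle 1, 3 without the trend and 1 with a mean of at least 5 TPM. None of the 31 changed direction under the alternatives run. Of the 10 genes, Ces1d, Fabp4, Cidec, Cfd and Car3 kept their direction, while Adipoq (-0.33 to 0.38), Plin1 (-0.17 to 0.20), Retn (-0.15 to 0.20), Lep (-0.02 to 0.05) and Scd1 (-0.54 to 0.28) had log2 fold changes of either sign.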
